A study of Mus musculus with 17 samples.

Results

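Gene expression in small-intestinal epithelial cells was compared between day of life 24 and day of life 42 in mouse pups nursed by C57BL/6 (B6) dams, the interval that follows weaning. The libraries were chosen by their titles, which gave 2 libraries of day 24 and 3 of day 42, 5 of the 17 in the series. All pups carried 1 intact and 1 disrupted copy of the immunoglobulin heavy constant alpha gene (Igha -/+, strain C57BL/6, from a cross of C57BL/6 with IgA-/- mice), so the pups at both ages could make IgA themselves and the dam supplied IgA in milk. The other arm of the series, used here only for comparison, consisted of Igha -/+ pups of IgA -/- dams at the same ages (3 libraries each), whose milk lacked IgA. All mice were kept specific pathogen free and cohoused where possible. Cells were sorted as EpCAM+ CD45- Ter119-, which keeps epithelium and excludes leukocytes and red cells, then frozen as pellets, and libraries were made with SMART-seq v4 chemistry for low input and Nextera XT. The labels do not say whether libraries of one age shared a litter, dam or cage, so the p-values carry nothing beyond the spread of these 5 libraries and of the others in the fit.

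Around weaning the epithelium that absorbed intact milk proteins is replaced by one that digests solid food, and the microbial community diversifies. Absorptive enterocytes take up nutrients, goblet cells secrete mucus, Paneth cells release antimicrobial peptides at the crypt base, and tuft cells sense luminal chemicals and answer with type 2 signals. Epithelial cells can also display peptides on MHC class II, a system switched on through the transactivator CIITA, and keep a set of antiviral genes that respond to type I and type III interferon. Several genes of the fetal and neonatal gut are shut down over the same weeks.

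Between 14833675 and 17655069 reads per library were recovered from the deposited TPM (relative abundance per transcript length), and these sums differed little. They cover the 47676 of 53278 gene symbols that gave whole numbers in every library, so they are not full depths. A single annotated short RNA, Gm23935, took 55.6% to 61.9% of the TPM, and mitochondrial genes 22.2% to 26.9%. The remaining genes were therefore compared after rescaling each library by the median of ratios, with factors from 0.671 to 1.24 in these libraries; all levels below are scaled TPM, and all differences are day 42 minus day 24 on the log2(scaled TPM + 1) scale, on which genes of low level change less than in fold. Epcam, the epithelial adhesion molecule of the sort, stood at 359 to 552, and Ptprc, which encodes the CD45 excluded by the sort, at 0.0420 to 0.490. Both fit the gate as labelled, though Ptprc was uneven across the libraries, as given below. Igha ranged from 0 to 0.889.

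Age was not the main axis along which the 5 libraries separated. Day 24 replicate 2 and day 42 replicate 1 resembled each other (Pearson r 0.959 over genes) more than they resembled the libraries of their own age, as day 24 replicate 1 did with day 42 replicates 2 and 3 (r 0.969 and 0.967). The 2 day 24 libraries correlated at only 0.894. The first principal component held 67.9% of the variance and set those 2 libraries apart, while the second held 15.2% and ordered the ages. Enterocyte genes moved along the first: the mean log2(scaled TPM + 1) of the sugar, peptide and fat absorption lists was 6.21 in day 24 replicate 2 and 5.25 in day 42 replicate 1, against 3.14 to 3.47 in the other three. In sorted bulk cells, fewer cells of a type and less RNA per cell cannot be told apart, here and in the lists below. T and NK cell genes moved with them. The 14 listed genes summed to 19.9 and 38.8 scaled TPM in those 2 libraries and to 1.26 to 5.01 in the rest, none being at 0 in all 5 libraries. Ptprc was also highest in those 2 libraries, at 0.237 and 0.490, against 0.0420 to 0.143 in the rest. The part of enterocyte or lymphocyte content in the age differences was not tested as a cause. The median of each list described below is given with and without the 2 libraries that stand apart. Without them a lone day 24 library, replicate 1, is left, so those medians are not a replicated comparison. The date in the labels also differed between the B6 dam ages, so that date and age cannot be told apart here.

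**Figure D1:**
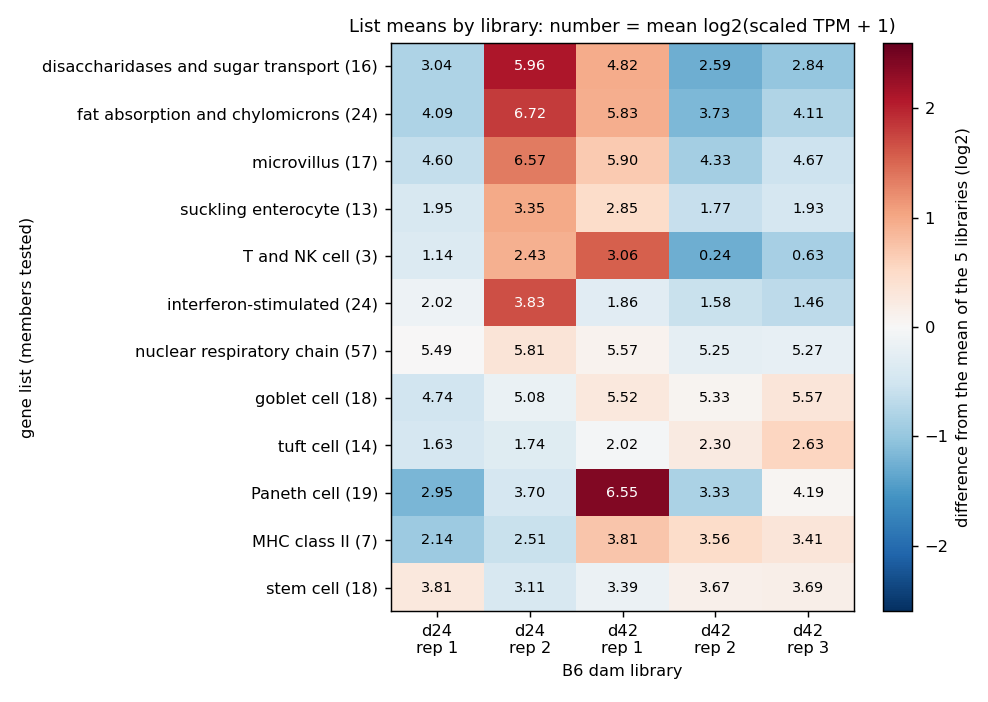
Mean log2(scaled TPM + 1) of the tested members of 12 gene lists (rows) in each of the 5 B6 dam libraries (columns); the printed number is the mean and the colour its difference from the mean of the 5 libraries. The absorption, microvillus and T and NK cell rows are high in day 24 replicate 2 and day 42 replicate 1 alike, whereas the MHC class II, goblet and tuft rows separate day 24 from day 42.

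Few genes passed the test between the ages. Of 12026 genes tested, 3 rose (0.0249%) and 2 fell (0.0166%) with age at an adjusted p under 0.05 (limma on all 17 libraries, Benjamini-Hochberg over all genes), 0.0416% in all. At an unadjusted p under 0.05 there were 927 genes (7.71%). The 5 genes are Igf2bp3, Gpc3, Ceacam10, Pxdn and Gm23722. All lie below 10 scaled TPM and outside the ranking used to name genes, so they were chosen after their values were seen. They separated the ages in the 2 enterocyte-rich libraries as in the other three.

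A pair of genes known from fetal tissue fell. Igf2bp3 encodes an RNA-binding protein that stabilises mRNAs in embryonic tissue and is silent in most adult organs (GRCm38 chr6:49085223-49214957, minus strand, protein coding). Its level was 2.17 and 2.27 at day 24 and 0.194, 0.407 and 0.232 at day 42. Every day 42 library was far below both day 24 libraries, which agreed closely with each other. The mean was 2.22 ± 0.0757 (SD, n = 2) at day 24 and 0.278 ± 0.114 (SD, n = 3) at day 42, a log2 difference of -1.34 (SE 0.10, limma adjusted p = 3.4e-05). It rested on 437 and 303 reads at day 24 against 28, 68 and 44 at day 42. The day 14 pups of B6 dams stood higher still, at 6.65 to 7.19, so the level was lower at each later age. The 3′ end of Igf2bp3 overlaps Malsu1 on the opposite strand, and the sources used here do not give the strand setting of the counting.

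Gpc3 encodes glypican-3, a heparan sulfate proteoglycan of the cell surface that restrains fetal growth (chrX:52272426-52613950, minus strand). It stood at 1.67 and 2.05 at day 24 and at 0.126, 0.509 and 0.240 at day 42. Both day 24 libraries were above all day 42 libraries. This amounted to a log2 difference of -1.15 (SE 0.15, limma adjusted p = 0.0087), from 111 and 90 reads to 6, 28 and 15. At day 14 the level had been 16.4 to 22.6. The annotated antisense genes Gm14582 and A630012P03Rik overlap it, and without a stated strand setting their reads cannot be told apart from those of Gpc3.

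Ceacam10 and Pxdn rose. Ceacam10, a rodent member of the carcinoembryonic antigen-related family (chr7:24777206-24784657, plus strand), was at 0.568 and 1.19 at day 24 and at 4.68, 5.42 and 5.03 at day 42. The 3 day 42 libraries lay close together and well above day 24. The log2 difference was 1.71 (SE 0.13, limma adjusted p = 3.4e-05), on 21 and 29 reads against 124, 166 and 175. In day 14 pups it was between 0 and 0.0379, so that it appeared between the first and the last age. The gene belongs to a family with close paralogs, and how reads shared between them were counted is not given in the sources used here.

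Pxdn encodes peroxidasin, a haem peroxidase that crosslinks collagen IV in basement membranes (chr12:29937608-30017658, plus strand). Its level was 0.386 and 0.140 at day 24 and 1.17, 1.56 and 1.74 at day 42. The ages did not overlap. The log2 difference was 0.98 (SE 0.14, limma adjusted p = 0.028), on 92 and 22 reads against 200, 307 and 391. Day 14 libraries were at 0 to 0.0306. Fibroblasts and smooth muscle cells also make basement membrane. The 11 genes of their list summed to 5.25 and 4.18 at day 24 and to 2.88, 5.26 and 7.67 at day 42, with Lum at 0 in all 5. Only 1 of them, Vim, passed the filter, and it made up most of each sum. It was at 5.14 and 3.55 and then at 2.25, 5.05 and 7.48. The sums therefore say little about these cells, and their part in the Pxdn difference was not tested.

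Gm23722, annotated as a small nucleolar RNA inside Rnf149 (chr1:39573746-39573875, minus strand), is uncertain. Its scaled TPM of 0.311 and 0.471 at day 24 and of 2.61, 2.26 and 2.65 at day 42 rested on 1 and 1 reads against 6, 6 and 8. This gave a log2 difference of 1.33 (SE 0.21, limma adjusted p = 0.048). Its reads cannot be told apart from those of the host gene.

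**Figure D2:**
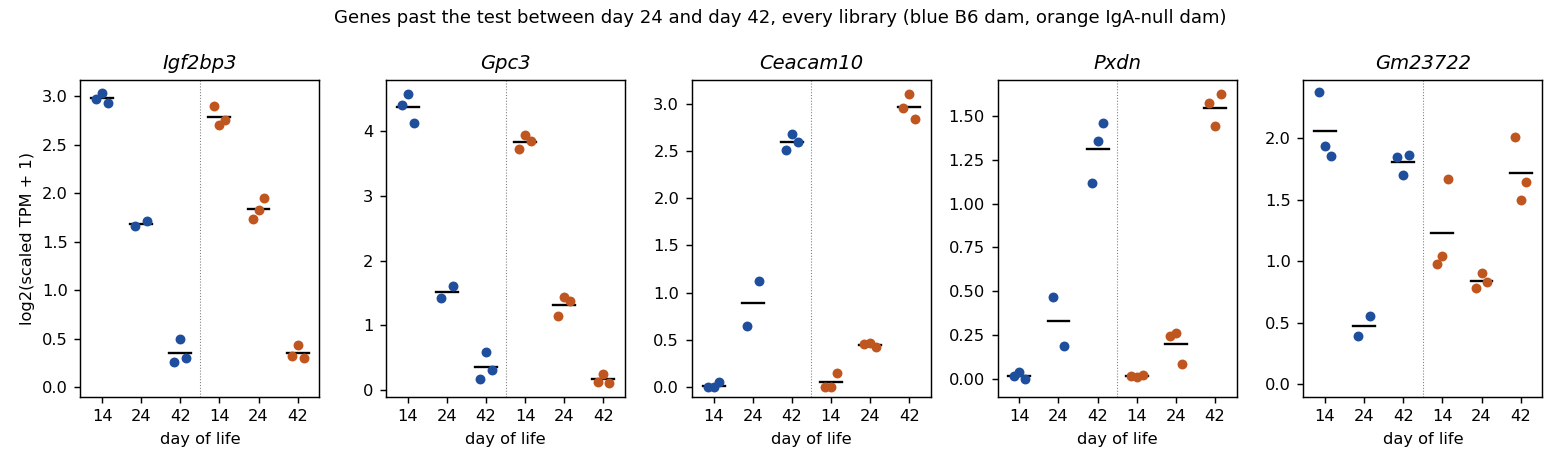
Level of each of the 5 genes past the test, as log2(scaled TPM + 1), in every library of the series (points) with the group mean (bar), by day of life; blue marks pups of B6 dams and orange pups of IgA -/- dams. Igf2bp3 and Gpc3 are lower at each later age and Ceacam10 and Pxdn higher in the pups of both dams, while Gm23722 is lowest at day 24.

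Without the 2 libraries that stand apart, 1 gene rose and 1 fell, Ceacam10 and Igf2bp3. That fit had a lone day 24 library, assumed to vary like the other groups. With the enterocyte score as a covariate 25 genes passed, 13 higher and 12 lower, among them all 5. Endog and Nox1 lay just outside the threshold and are named after their values were seen. Endog, the mitochondrial endonuclease G, was at 4.30 and 5.07 at day 24 and 1.91, 2.11 and 1.86 at day 42 (log2 difference -0.94, SE 0.15, limma adjusted p = 0.056). Nox1, the NADPH oxidase of the gut epithelium, was at 0.868 and 0.259 at day 24 and 1.71, 2.29 and 2.07 at day 42 (log2 difference 0.97, SE 0.17, limma adjusted p = 0.074).

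No member of the 53 gene lists, 49 of which had a member tested, passed the test. Their members are therefore described by whether every day 42 library was above or below both day 24 libraries. Over all genes tested, 982 (8.17%) were separated in this way with day 42 higher and 1218 (10.1%) with day 42 lower, and the median difference of all genes was -0.05. With the TPM as deposited the median of all genes was 0.12, and in pups of IgA -/- dams it was 0.61. In those pups 1916 genes (15.9%) were separated with day 42 higher and 2318 (19.3%) with day 42 lower. Separation is a stricter condition there, with 3 libraries at each age, than with 2 at day 24 and 3 at day 42. The shares of the arms are therefore not like measures. A random order of the 5 B6 dam libraries would separate shares near those seen in that arm.

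**Figure D3:**
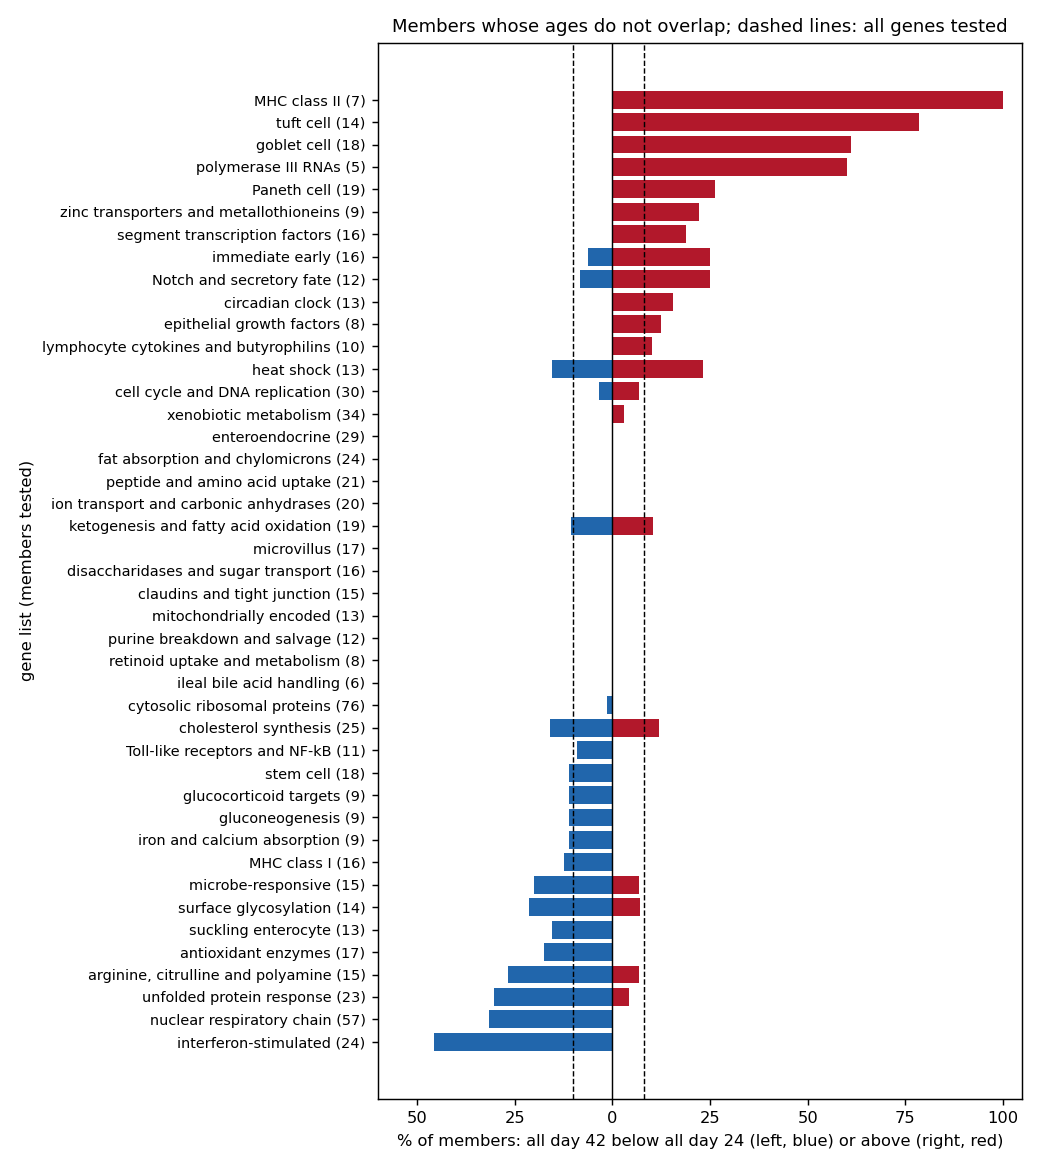
For each gene list with at least 5 tested members, the percent of members whose day 42 libraries were all above both day 24 libraries (red, right) or all below (blue, left); dashed lines mark the shares over all genes, 8.17% and 10.1%. The MHC class II, tuft and goblet lists have the highest red shares among lists of 7 or more, the interferon-stimulated list the highest blue share, and the absorption and microvillus lists have none.

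The MHC class II genes were higher in every day 42 library. All 7 tested of 8 listed were separated with day 42 higher, against 8.17% of all genes, and their median difference was 1.34. Cd74, the invariant chain that guards the peptide groove, was at 28.9 and 30.5 at day 24 and 114, 107 and 88.3 at day 42. Its day 24 libraries were nearly the same. H2-Aa, H2-Eb1 and H2-DMb1, described below, were higher in day 24 replicate 2, the enterocyte-rich library, than in replicate 1. Day 42 replicate 1, also enterocyte-rich, was the highest library for Cd74 and for those genes. The log2 difference of Cd74 was 1.75 (SE 0.50, limma adjusted p = 0.43).

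H2-Aa, the alpha chain of the I-A molecule, was at 0.842 and 1.89 at day 24 and at 10.7, 7.15 and 6.95 at day 42. Its difference was 1.98 (SE 0.39, limma adjusted p = 0.17). H2-Eb1, the beta chain of I-E, was at 6.59 and 9.82 and then at 31.0, 24.31 and 22.04. The RNAs of H2-Aa and H2-Eb1 were thus low together at day 24, which does not speak for the proteins. H2-DMb1, a chain of the peptide editor H2-M, was at 0.572 and 1.24 and then at 3.31, 3.03 and 3.04. Ciita, the transactivator of these genes, was at 0.785 and 0.478 and then at 1.39, 1.58 and 1.22, the same order at a low level.

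The MHC class II median was 1.52 without the 2 libraries that stand apart and 1.66 with the enterocyte covariate, under which H2-Aa had an adjusted p of 0.048 (limma); it ranged from 0.91 to 1.76 over the alternatives that gave a value, which leaves out limma-voom, since no reads were recovered for these genes. H2-Aa also had an adjusted p of 0.025 (limma) with the TPM as deposited. Few markers of other cells that carry MHC class II passed the filter, 1 of 8 for B and plasma cells and 2 of 10 for macrophages and granulocytes. No list covered dendritic cells. The 8 B and plasma cell genes summed to 0.478 and 2.13 at day 24 and to 4.75, 0.380 and 1.64 at day 42, and the 10 macrophage and granulocyte genes to 5.03 and 3.90 and then 6.05, 6.93 and 5.29, with S100a8 at 0 in all 5. The macrophage and granulocyte sum was thus highest in the day 42 libraries; its part in the MHC class II difference was not tested. The same 7 genes had a median of 0.73 in pups of IgA -/- dams, and none was separated between the ages, a stricter condition in that arm. Of all genes there, 15.9% were separated with day 42 higher and 19.3% with day 42 lower.

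Promoters of H2-Aa and H2-Eb1 are shown because the MHC class II genes stood higher together and share a conserved promoter module. They are the 250 bases before the start of transcription (RefSeq, GRCm38.p6), 5′ to 3′ on the strand of the gene, with matches to ATTGG, the core of the Y box, on either strand in capitals. H2-Aa lies at chr17:34287824-34288073 on the minus strand and H2-Eb1 at chr17:34305617-34305866 on the plus strand.
H2-Aa: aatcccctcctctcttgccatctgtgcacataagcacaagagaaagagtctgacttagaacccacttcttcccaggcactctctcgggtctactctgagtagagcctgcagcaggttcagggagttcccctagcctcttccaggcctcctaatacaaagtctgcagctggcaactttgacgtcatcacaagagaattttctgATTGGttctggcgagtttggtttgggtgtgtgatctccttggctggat
H2-Eb1: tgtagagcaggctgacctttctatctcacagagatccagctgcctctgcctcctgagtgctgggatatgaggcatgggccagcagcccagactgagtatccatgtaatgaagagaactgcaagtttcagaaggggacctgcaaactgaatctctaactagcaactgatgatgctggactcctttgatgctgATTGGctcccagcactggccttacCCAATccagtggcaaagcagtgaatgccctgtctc
The match in H2-Aa begins 48 bases before the start, on the strand of the gene. In H2-Eb1 a match on the strand of the gene begins 59 bases before the start. Another, on the opposite strand, begins 35 bases before it. Of the 7 tested genes 4 have a window in the table, and all 4 hold ATTGG within the 300 bases around the start. So do 37.4% of all 32851 windows, so the match is common. A gene counts if any of its windows holds the motif, whereas the share counts windows.

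Interferon-stimulated genes stood lower at day 42. Of 24 tested (30 listed), 11 were separated with day 42 lower, 45.8% against 10.1% of all genes. All 24 differences were below 0, with a median of -1.27, and 22 had an unadjusted p under 0.05, as did 7.71% of all genes in either direction. Isg15, a ubiquitin-like modifier, was at 11.6 and 72.7 at day 24 and at 5.45, 3.10 and 3.30 at day 42. Both day 24 libraries were above day 42, but replicate 2 exceeded replicate 1 several times over. The log2 difference was -2.65 (SE 0.60, limma adjusted p = 0.24).

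Oas1a, a 2′-5′ oligoadenylate synthetase that senses double-stranded RNA, was at 4.36 and 9.81 and then at 1.38, 1.97 and 1.12. Mx2, an antiviral GTPase, was at 1.39 and 3.83 and then at 0.656, 0.514 and 0.333. Usp18, which removes ISG15 from proteins and damps interferon signalling, was at 2.57 and 14.0 and then at 1.36, 1.26 and 1.56. For all of these the ages did not overlap, and day 24 replicate 2 was the highest library. Their limma adjusted p lay between 0.23 and 0.41.

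The size of the interferon-stimulated difference rested largely on that library. The median was -0.42 without day 24 replicate 2 and -2.14 without day 24 replicate 1. Without replicate 1, all 4 named genes passed the test (limma adjusted p between 0.0023 and 0.019), with a single day 24 library left that is assumed to vary like the other groups. It was -0.50 without both libraries that stand apart and -0.93 with the enterocyte covariate, under which Isg15 had an adjusted p of 0.048 (limma). Every alternative kept the median below 0. Their median in pups of IgA -/- dams was -1.25, and 12 of the 24 genes fell at an adjusted p under 0.05, against 1.81% of all genes falling there. Isg15 there differed by -2.998 (limma adjusted p = 0.014).

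The promoter of Isg15 is shown because these genes stood lower together. It is the 250 bases before the start (RefSeq, GRCm38.p6, chr4:156200819-156201068, minus strand), with matches to GAAANNGAAA, the core of the interferon-stimulated response element, in capitals. Its 3 matches overlap each other and begin 78, 72 and 66 bases before the start.
Isg15: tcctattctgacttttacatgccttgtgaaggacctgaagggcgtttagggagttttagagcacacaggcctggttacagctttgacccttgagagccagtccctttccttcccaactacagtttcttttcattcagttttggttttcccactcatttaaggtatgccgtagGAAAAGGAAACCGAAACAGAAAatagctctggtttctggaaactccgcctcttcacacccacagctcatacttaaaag
Of the 24 tested genes 17 have a window in the table. In 10 of these any window holds the motif on either strand within the 300 bases around the start. Of all windows 3.44% hold it, a share of windows and not of genes. The list is of genes that respond to interferon, so its share with this element is not a result of these data. Both motifs were picked after the values were seen, and a match does not show binding.

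Goblet cell genes stood higher at day 42. Of 18 tested (20 listed), 11 were separated with day 42 higher, 61.1% against 8.17% of all genes. None was separated with day 42 lower, against 10.1% of all genes. Muc2, the gel-forming mucin of intestinal mucus, was at 97.7 and 171 at day 24 and at 329, 256 and 271 at day 42. Fcgbp, a mucus protein linked to Muc2, was at 153 and 240 and then at 405, 331 and 422. For both, the lowest day 42 library exceeded the higher day 24 library. The log2 difference of Muc2 was 1.12 (SE 0.31, limma adjusted p = 0.41) and that of Fcgbp 1.00 (SE 0.29, limma adjusted p = 0.43). Without day 24 replicate 1, the lower day 24 library for both, these were 0.72 and 0.68.

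Fer1l6, a ferlin family gene, was at 1.74 and 3.12 and then at 5.47, 4.01 and 4.55; under the enterocyte covariate its adjusted p was 0.039 (limma), and without day 24 replicate 1 its log2 difference was 0.45. Sytl2, a synaptotagmin-like protein of vesicle transport, was at 2.06 and 2.42 and then at 3.49, 3.61 and 4.42. The goblet genes without separation included Spdef, the goblet transcription factor, at 7.43 and 5.65 and then at 5.37, 8.47 and 8.86. The goblet median was 0.51, 0.60 without the 2 libraries that stand apart, and 0.38 to 0.70 over all alternatives. It was 0.02 in pups of IgA -/- dams, where no goblet gene was separated under the stricter condition of that arm. Of all genes there, 15.9% were separated with day 42 higher and 19.3% with day 42 lower.

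Tuft cell genes also stood higher at day 42, with 11 of 14 tested (20 listed) separated, 78.6% against 8.17%. Trpm5, the cation channel of tuft cell sensing, was at 3.06 and 3.65 at day 24 and at 4.73, 6.81 and 8.78 at day 42. Dclk1, the kinase that marks tuft cells, was at 2.06 and 2.06 and then at 2.495, 4.39 and 5.13. Day 42 replicate 1 was the lowest day 42 library for both. Fyb, an adaptor protein, was at 2.82 and 3.32 and then at 4.11, 6.71 and 7.58, and Ltc4s, the leukotriene C4 synthase, at 0.479 and 1.03 and then at 1.73, 1.20 and 2.20. All 14 differences were above 0, with a median of 0.63 (0.78 without the 2 libraries that stand apart); adjusted p for these 4 lay between 0.52 and 0.62 (limma). In pups of IgA -/- dams the median was 1.36 and 11 of the 14 genes rose at an adjusted p under 0.05, against 2.01% of all genes rising there.

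**Figure D4:**
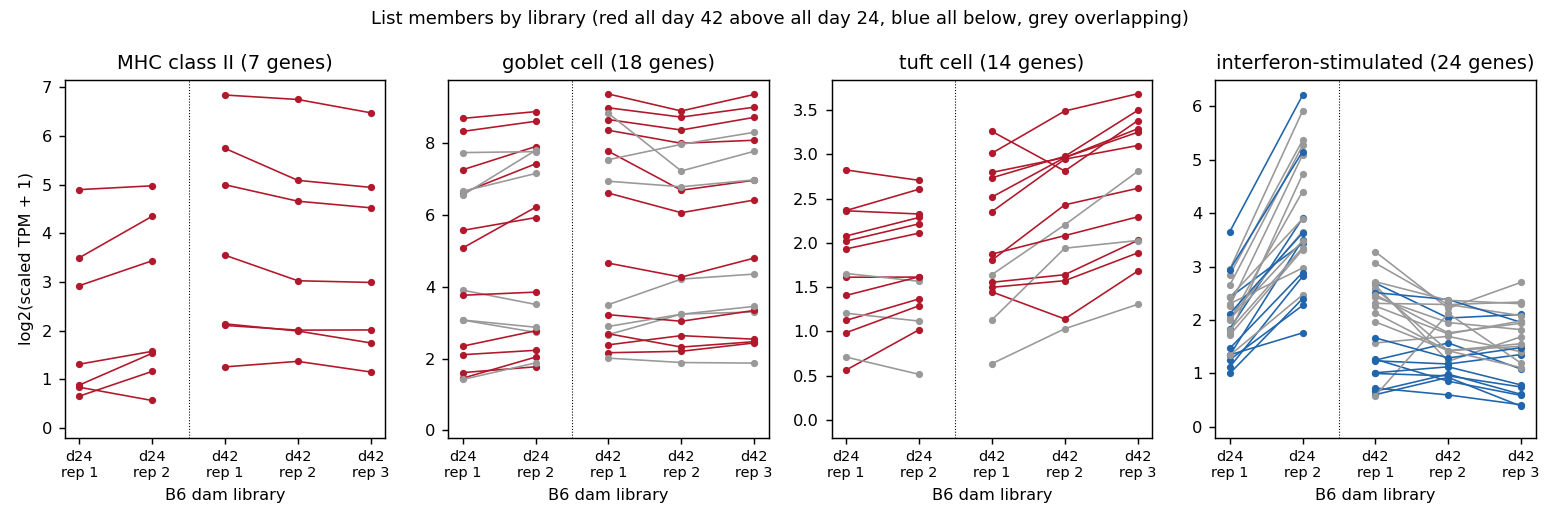
Each line is 1 tested gene of the list named above the panel, with log2(scaled TPM + 1) on the vertical axis and the 5 B6 dam libraries along the horizontal; red lines are genes with all day 42 libraries above both day 24 libraries, blue lines those with all below, and grey lines those that overlap. All 7 MHC class II genes are red, and the interferon-stimulated genes are high in day 24 replicate 2.

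Paneth cell genes were high in 1 library. All 19 tested (20 listed) had a difference above 0, with a median of 1.31, but only 5 were separated, 26.3% against 8.17%. Lyz1, the Paneth lysozyme, was at 60.8 and 122 at day 24 and at 1592, 102 and 260 at day 42, and the ages overlapped. Ang4, an antimicrobial ribonuclease, was at 3.59 and 13.4 and then at 266, 18.7 and 36.9, without overlap. Both were far higher in day 42 replicate 1 than in any other library. Gm14851, a defensin gene model, was at 4.61 and 14.998 and then at 449, 15.3 and 41.5, and Habp2, a serine protease of hyaluronan binding, at 0.671 and 0.863 and then at 5.13, 1.15 and 2.11. The Paneth median was 0.38 without day 42 replicate 1, 2.08 without day 42 replicate 2, 0.77 without both libraries that stand apart and 2.05 with the enterocyte covariate, under which Ang4 had an adjusted p of 0.024 (limma); the defensin genes are near-identical copies whose reads may be split between them. In pups of IgA -/- dams the median was -1.51, with 16 of the 19 separated with day 42 lower, against 19.3% of all genes there, and 1 called. The difference between the dams passed the test for none of these genes. The smallest adjusted p, that of Habp2, was 0.42 (limma), a value that genes outside the list such as Hspa1b shared.

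Enterocyte genes did not separate the ages. None of the 16 sugar digestion and transport genes, 21 peptide and amino acid genes, 24 fat absorption genes or 17 microvillus genes tested was separated in either direction. Over all genes 8.17% were separated with day 42 higher and 10.1% with day 42 lower. The medians of these 4 lists were -1.01, -0.85, -0.75 and -0.61. Slc2a2, the basolateral glucose transporter GLUT2, was at 3.30 and 59.2 at day 24 and at 15.1, 0.688 and 1.11 at day 42. The spread within each age exceeded the difference between them. Without the 2 libraries that stand apart the medians were -0.27, -0.12, -0.06 and -0.02. Slc2a2 passed the test without day 24 replicate 1 (-3.97, limma adjusted p = 0.033), where replicate 2 was the lone day 24 library. In pups of IgA -/- dams all 16 sugar genes were separated with day 42 lower, against 19.3% of all genes there. Of these 16, 0 passed the test, against 1.81% of all genes falling there.

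S100g, the calcium-binding protein calbindin-D9k of calcium absorption, was at 53.2 and 480 at day 24 and at 47.3, 26.5 and 22.3 at day 42. Day 24 replicate 1 was barely above the highest day 42 library. Its log2 difference was -2.36 (SE 0.75, limma adjusted p = 0.48). The difference was -1.10 without both libraries that stand apart and -3.94 without day 24 replicate 1 (limma adjusted p = 0.010), which leaves replicate 2 as the lone day 24 library. In pups of IgA -/- dams S100g also differed by -3.94 (limma adjusted p = 0.012). Of 20 genes of the suckling enterocyte, which takes up milk protein by endocytosis, 13 were tested; none had a difference above 0, 2 were separated with day 42 lower (15.4% against 10.1%), and the median was -0.48. The suckling median was -0.09 without both libraries that stand apart and 0.13, the other sign, without day 24 replicate 2.

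Among genes that respond to microbes, 3 of 15 tested (20 listed) were separated with day 42 lower (20% against 10.1%) and 1 with day 42 higher (6.67% against 8.17%). The median was -0.57, and -0.35 without the 2 libraries that stand apart. Fut2, the fucosyltransferase that decorates the surface with fucose, was at 2.41 and 4.26 and then at 0.645, 1.45 and 1.85. Reg3b, an antimicrobial lectin, was at 1840 and 4651 and then at 1477, 712 and 951. Both were highest in day 24 replicate 2, and without both libraries that stand apart they differed by -0.37 and -1.16. Ccl28, a chemokine that draws IgA plasma cells to mucosa, was at 5.08 and 3.63 and then at 6.67, 7.19 and 7.42, without overlap. Its log2 difference was 0.61 (SE 0.18, limma adjusted p = 0.43), and in pups of IgA -/- dams it rose by 0.70 (limma adjusted p = 0.034). With day 24 replicate 1 left out and replicate 2 alone, Fut2 (-1.22, limma adjusted p = 0.031) and Ccl28 (0.81, limma adjusted p = 0.040) passed the test.

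In the heat shock list 3 of 13 genes tested were separated with day 42 higher (23.1% against 8.17%) and 2 with day 42 lower (15.4% against 10.1%). Hspa1a and Hspa1b, near-identical genes for inducible HSP70 whose reads may be split between them, were higher at day 42. Hspa1b was at 3.36 and 2.42 at day 24 and at 12.2, 10.6 and 8.64 at day 42, and Hspa1a at 1.28 and 0.475 and then at 3.79, 3.51 and 3.07. Neither passed the test (limma adjusted p = 0.23 and 0.29), though both did with day 24 replicate 1 left out and replicate 2 alone (limma adjusted p = 0.033 and 0.031). The median of all 13 was 0.01, changed sign between alternatives, and was -0.12 without the 2 libraries that stand apart. Hspa1b in pups of IgA -/- dams differed by -0.25 and its libraries overlapped. The difference between the dams for Hspa1b was 1.81 (limma adjusted p = 0.42).

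In the unfolded protein response list, none of which passed the test, 7 of 23 tested were separated with day 42 lower (30.4% against 10.1%) and 1 with day 42 higher (4.35% against 8.17%). Hspa5, the chaperone BiP, was at 102 and 115 and then at 75.9, 77.8 and 78.0, and Manf, a secreted protein of the same response, at 19.9 and 21.0 and then at 13.7, 13.3 and 14.43. The libraries of each age lay close together for both, with adjusted p of 0.38 and 0.43 (limma); Hspa5 passed without day 24 replicate 1 (limma adjusted p = 0.046). The list median was -0.23, and -0.04 without the 2 libraries that stand apart. Its direction depended on the scaling: it was -0.008 with the TPM as deposited, with 11 of 23 genes above 0, and 0.02 under quantile normalization, with 12 above 0.

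Nuclear genes of the respiratory chain stood slightly lower at day 42. All 57 tested had a difference below 0, with a median of -0.31, though 14 of the 57 were above 0 with the TPM as deposited and 18 under quantile normalization. In the fit reported 18 were separated (31.6% against 10.1%). Cyc1, cytochrome c1 of complex III, was at 83.7 and 103 and then at 77.2, 63.9 and 61.5. Ndufb8, a complex I subunit, was at 18.7 and 22.2 and then at 16.8, 14.17 and 13.2. The gaps between the ages were small beside the spread within day 24, with adjusted p of 0.50 and 0.52 (limma). The median was -0.25 without the 2 libraries that stand apart, stayed below 0 over all alternatives (-0.45 to -0.07), and was -0.19 in pups of IgA -/- dams.

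The same interval in pups of IgA -/- dams gave more calls, 460 genes (3.83%), of which 242 rose (2.01%) and 218 fell (1.81%). No library is shared between the arms, but the size factors and the estimate of the spread came from all 17 libraries. The day 42 libraries of both arms carry the same date in their labels. Labels of the IgA -/- arm begin with F and those of the B6 arm with M. The meaning of these letters is not stated, and letter and dam cannot be told apart. The median SE was 0.18 in pups of B6 dams (5 libraries) and 0.16 in the others (6 libraries). All 5 genes called in pups of B6 dams were called there too, in the same direction, which is 100% of the B6 dam calls and 1.09% of the others. Igf2bp3 was at 2.32 to 2.87 at day 24 and at 0.232 to 0.354 at day 42 in that arm, a log2 difference of -1.48 (SE 0.09). Ceacam10 was at 0.340 to 0.382 and then at 6.14 to 7.56, a difference of 2.51 (SE 0.12).

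Of the 242 genes that rose in pups of IgA -/- dams, 182 (75.2%) had a difference above 0 in pups of B6 dams, as did 40.1% of all genes, and 83 (34.3%) were separated, as were 8.17% of all genes. Of the 218 that fell, 193 (88.5%) were below 0, as were 59.9% of all genes, and 57 (26.1%) were separated, as were 10.1%. Across genes, which are not independent replicates, the differences of the arms correlated at r 0.468.

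**Figure D5:**
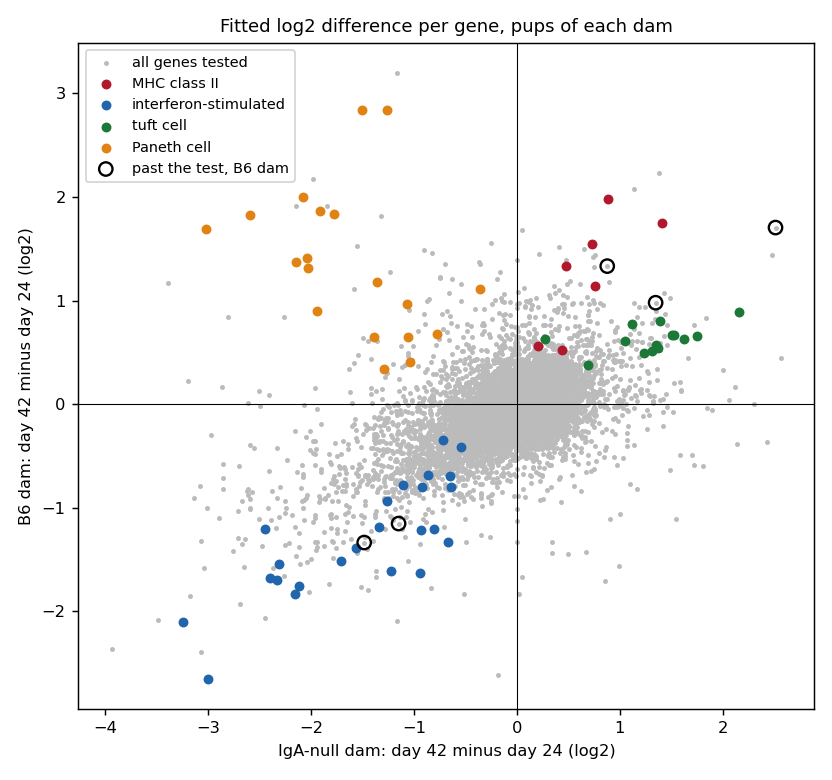
Fitted log2 difference (day 42 minus day 24) per gene in pups of IgA -/- dams (horizontal) and of B6 dams (vertical); grey points are all 12026 genes tested, coloured points the members of 4 lists, and open circles the 5 genes past the test in pups of B6 dams. Interferon-stimulated genes lie below 0 and tuft cell genes above 0 on both axes, and Paneth cell genes lie above 0 on the vertical and below 0 on the horizontal axis.

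The difference between the arms was tested directly. No gene passed (limma, 0 of 12026; 947, or 7.87%, at an unadjusted p under 0.05). A pair of genes shared the smallest adjusted p, Fkbp5 and AC124709.3. Fkbp5 encodes a co-chaperone of the glucocorticoid receptor that glucocorticoids induce. In pups of B6 dams its level was at 4.14 and 2.27 at day 24 and at 1.25, 1.23 and 1.39 at day 42. In pups of IgA -/- dams it was at 1.23, 0.826 and 0.879 and then at 2.39, 1.68 and 2.08. The order of the ages was thus opposite in the arms, and day 24 replicate 1 of the B6 dams was the highest library. Day 14 pups of B6 dams were at 0.696 to 0.905.

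For Fkbp5 the difference between the arms was -1.46 (SE 0.22, limma adjusted p = 0.093). It ranged from 0.0049 to 0.64 over the alternatives and passed without day 24 replicate 2 of the B6 dams (0.0049), without both libraries that stand apart (0.018), both of which leave day 24 replicate 1 as the lone day 24 library of that arm, assumed to vary like the other groups, with the enterocyte covariate (0.026) and with no filter on low values (0.044). Within pups of B6 dams the adjusted p was 0.17, and in pups of IgA -/- dams the rise of 0.62 had an adjusted p of 0.038 (limma). Of the other 8 glucocorticoid targets tested, none was separated in pups of B6 dams. Of all genes there, 8.17% were separated with day 42 higher and 10.1% with day 42 lower. The labels give the day 24 libraries of B6 dams a date that they share with no day 42 library of that arm, whereas both ages of the IgA -/- dams carry 1 date; the part of the date was not tested.

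AC124709.3, which had no coordinates in the annotation used and no recovered reads, was listed at 0 in both day 24 libraries of the B6 dams and stood at 1.32, 1.43 and 1.26 at day 42. The IgA -/- arm was at 1.09, 0.668 and 1.19 at day 24 and at 0, 0.277 and 0.270 at day 42, the opposite order of the ages. The difference between the arms was 1.97 (SE 0.30, limma adjusted p = 0.093). Its adjusted p ranged from 0.030 to 0.9997 over the alternatives, and the difference passed only with no filter on low values.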

How the data were processed

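Pellets of sorted small-intestinal epithelial cells gave 17 libraries in 6 groups of dam and day of life. The values are TPM per gene as deposited by the authors, in 1 table of 53278 gene symbols; the submitters' processing notes name mm10, Bowtie2, Subread and DESeq2 without versions or roles. TPM is relative within a library, and libraries were therefore divided by median-of-ratios size factors (0.477 to 1.83). Genes with a deposited TPM of at least 1 in at least 2 of the 5 B6 dam libraries of days 24 and 42 were tested with limma 3.58.1 (R 4.3.3; empirical Bayes with a trend) on log2(scaled TPM + 1), in 1 fit of 17 libraries with 6 group means, with Benjamini-Hochberg adjustment and a threshold of 0.05; the script was tested on simulated data. Reads were recovered from TPM with exon lengths of GENCODE M21, which gave whole numbers (within 0.01 reads, or 1e-04 of larger values) for 93.62% of values above 0; 10725 genes entered limma-voom on those reads as an alternative. Coordinates are GRCm38, GENCODE M21, and promoter sequences RefSeq GRCm38.p6.

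The libraries, the gene lists and the tests were chosen with earlier results of these data known. Genes were named by rule: the 15 largest rises and falls past the test with a mean of at least 10 scaled TPM and no overlap (none qualified), for each list the members of smallest p (at most 4), check genes, and 10 genes with the lowest adjusted p in the test of the dams against each other. Ciita and Spdef, outside this rule, were added after their values were seen. The replicate numbers in the titles name samples and are not stated to pair them. Alternatives covered the pseudocount, filters, scaling, moderation, library weights, the replicate block, recovered reads and each library left out; leaving out both libraries that stand apart, and the enterocyte covariate, were chosen after seeing the data. Python 3.11.15 and Matplotlib 3.10.9 were used for tables and figures.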

Additional observations from a re-analysis of the deposited data

How the results depend on the processing

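The counts for pups of B6 dams were small under nearly every alternative. Genes higher at day 42 than day 24, 3 in the fit reported, numbered 8 with no filter on low values, 1 at a TPM of 5 or more, 0 with only the libraries compared (244 at an unadjusted p under 0.05, limma), 1 with library weights, 1 without both libraries that stand apart and 13 with the enterocyte score as covariate. Leaving out each library gave 1 to 94. Genes lower at day 42, 2 in the fit reported, numbered 1 with a pseudocount of 5, 13 with no filter, 0 at a TPM of 5 or more, 1 with the TPM as deposited, 0 with only the libraries compared (235 at an unadjusted p under 0.05), 1 with library weights, 1 without both libraries that stand apart and 12 with the covariate. Leaving out each library gave 1 to 811. Both highest counts came without day 24 replicate 1, which leaves the enterocyte-rich replicate 2 as the lone day 24 library, assumed to vary like the other groups. List members called, 0 in the fit reported, numbered 1 with the TPM as deposited, 7 with the covariate and 0 to 135 with each library left out. Recovered reads gave 4 calls, all among the 5. Genes called in pups of IgA -/- dams, 460 in the fit reported, numbered 238 with no filter, 274 at a TPM of 5 or more, 7319 with the TPM as deposited, 705 with quantile normalization, 1192 with only the libraries compared, 1412 with library weights, 276 on recovered reads, 2193 without both libraries that stand apart, 300 with the covariate and 40 to 472 with each library left out. Genes whose change differs between dams, 0 in the fit reported, numbered 15 with no filter, 9 without both libraries that stand apart, 3 with the covariate and 0 to 2 with each library left out. Of the single-gene results under the alternatives, 760 kept their direction and side of the threshold, 33 passed it newly, 29 no longer passed and 0 changed direction. Igf2bp3 and Ceacam10 lost the call with only the libraries compared; Gpc3, Pxdn and Gm23722 lost it under several, without day 24 replicate 2 among them (adjusted p 0.25, 0.32 and 0.29, limma). The cause was not tested.

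With the replicate number as a block, genes higher numbered 1 and genes lower 2, all 3 among the 5 reported, and 151 genes were called in pups of IgA -/- dams. Same-numbered libraries of the ages deviated from their group means in opposite directions (r -0.705 for number 1 and -0.584 for number 2). The deviations of the 2 day 24 libraries mirror each other, so these r values are not separate observations. They cannot show whether the numbers pair the samples. The titles do not state a pairing, and none was assumed in the fit reported. With 2 libraries at day 24 and 1 of each age standing apart, the B6 dam comparison resolves only differences that are large beside that spread.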

Other observations

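None of the 29 enteroendocrine genes tested (30 listed), which mark the hormone-producing cells, was separated in pups of B6 dams. Of all genes there, 8.17% were separated with day 42 higher and 10.1% with day 42 lower. The enteroendocrine median was 0.04, and it was 0.195 without the 2 libraries that stand apart and -0.195 with the enterocyte covariate. The list mean, as log2(scaled TPM + 1), was 3.71 and 3.29 at day 24 and 2.92, 3.64 and 4.10 at day 42, so the ages overlapped. In pups of IgA -/- dams the median was 1.07, with 24 separated with day 42 higher (15.9% of all genes there) and 15 called higher (2.01% of all genes). The difference between the arms passed the test for no gene. Stem cell genes (18 tested) had 2 separated with day 42 lower (11.1% against 10.1% of all genes), with a median of 0.14 that was -0.11 without the 2 libraries that stand apart. Of 30 cell cycle genes, 2 were separated with day 42 higher (6.67% against 8.17%) and 1 with day 42 lower (3.33% against 10.1%), with a median of -0.05 that was -0.22 without the 2 libraries that stand apart. The 76 cytosolic ribosomal protein genes had 1 separated, with day 42 lower (1.32% against 10.1%). Their median was -0.05, and was -0.33 without the 2 libraries that stand apart and -0.20 with the enterocyte covariate.

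Short RNAs made by RNA polymerase III had 3 of 5 tested (7 listed) separated with day 42 higher, 60% against 8.17% of all genes, with a median of 0.63, 0.56 without the 2 libraries that stand apart and -1.36 in pups of IgA -/- dams. Rny1, a Y RNA, was at 14.08 and 8.20 at day 24 and at 24.197, 30.1 and 14.97 at day 42 (limma adjusted p = 0.59). Unlike the list median, it was also higher at day 42 in pups of IgA -/- dams (1.14). Rn7sk, which made up most of the list, went the other way with overlap (log2 difference -0.44). It was at 4973 and 6687 at day 24 and at 4084, 5226 and 3635 at day 42. The list sum was 5247 and 7051 and then 4631, 5800 and 4070. MHC class I genes, in contrast to class II, had 0 of 16 tested separated with day 42 higher, against 8.17% of all genes. With day 42 lower 2 were separated (12.5% against 10.1%). The class I median was -0.48, and 0.04 without the 2 libraries that stand apart.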
